A study of Mus musculus with 16 samples.

Results

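The 10 genes described here encode chaperones of the endoplasmic reticulum (ER) and parts of the machinery that removes misfolded proteins from it (ER-associated degradation, ERAD). They were taken as a fixed list (Hspa5, Hyou1, Dnajb9, Dnajc3, Sdf2l1, Pdia4, Creld2, Manf, Sel1l and Herpud1) out of 20284 gene symbols on the array. Between them they had 11 of the 55681 probes, 2 for Dnajb9 and 1 for each other gene, and all 11 were well above background on all 8 arrays of each group. In liver total RNA from male ApoE KO mice they were compared between 8 samples of ctrl-inh, a control inhibitor, and 8 of miR-185-inh, antisense miR-185 encoded by a lentivirus. ApoE KO mice have no apolipoprotein E, which clears lipoprotein remnants, and so develop high plasma cholesterol. Both groups were fed a high-fat diet, their stated age was 8 weeks, and livers were taken after 8 weeks. The series was designed around bile acid metabolism, CYP7A1 and FoxO1. Neither the cell type that the lentivirus entered nor the sequence it encodes is given in the sources used here.

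Secreted and membrane proteins fold in the ER, and hepatocytes, which make most plasma proteins, carry a large ER. When unfolded proteins accumulate, the sensors IRE1, PERK and ATF6 start the unfolded protein response, in which XBP1 and cleaved ATF6 turn on chaperone and ERAD genes. Much of that transcription runs through the ER stress response element (ERSE), a CCAAT box that binds NF-Y at a set distance from a CCACG site that binds ATF6 or XBP1.

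The stretch just before the start of 5 genes is printed here, because 4 of them hold a complete stress element and the fifth, Sel1l, has the second largest group difference and holds none. The 150 bases before each annotated start are from RefSeq on build GRCm38.p6, read 5′ to 3′ on the strand of the gene, and capitals mark the fixed letters of ERSE or ERSE-II on either strand.
Creld2, chr15:88819496-88819645 (+ strand): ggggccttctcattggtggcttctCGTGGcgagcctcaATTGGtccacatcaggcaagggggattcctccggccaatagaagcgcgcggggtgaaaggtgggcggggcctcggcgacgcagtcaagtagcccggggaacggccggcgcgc
Hspa5, chr2:34771940-34772089 (+ strand): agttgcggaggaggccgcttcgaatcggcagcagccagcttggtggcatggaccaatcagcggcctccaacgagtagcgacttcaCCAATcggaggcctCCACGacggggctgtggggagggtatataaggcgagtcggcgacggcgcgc
Dnajc3, chr14:118937782-118937931 (+ strand): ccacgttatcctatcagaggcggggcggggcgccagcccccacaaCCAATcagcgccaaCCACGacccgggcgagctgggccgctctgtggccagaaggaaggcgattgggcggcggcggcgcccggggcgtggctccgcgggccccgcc
Herpud1, chr8:94386279-94386428 (+ strand): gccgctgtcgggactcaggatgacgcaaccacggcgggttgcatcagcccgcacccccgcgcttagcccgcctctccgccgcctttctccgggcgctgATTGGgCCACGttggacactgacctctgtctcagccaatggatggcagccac
Sel1l, chr12:91849158-91849307 (- strand): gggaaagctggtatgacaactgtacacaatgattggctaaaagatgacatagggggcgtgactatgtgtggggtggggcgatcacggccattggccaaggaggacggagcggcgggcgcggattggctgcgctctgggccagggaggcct
In RefSeq windows of 250 bases before the start, available for 8 of the 10 genes (not for Hyou1 and Manf), the ERSE, which is CCAAT, then 9 bases of any kind, then CCACG, was found on either strand in Creld2, Hspa5 and Dnajc3. That is 3 of 8 genes, against 0.13% of 27025 genes, or 0.113% of 32851 windows of the same length over the annotation. Among other genes of the same pathways, listed further below, the ERSE was found in 7 of 106 (6.6%). In Creld2 it lay on the opposite strand, 126 to 108 bases before the start, in Dnajc3 105 to 87 and in Hspa5 65 to 47 bases before it. The related ERSE-II, which is ATTGG, then 1 base of any kind, then CCACG, was found in Herpud1 at 52 to 42 bases before the start. It was in 0.037% of all genes and in 0 of the 106 other pathway genes. Herpud1 was also the 1 gene with TTGCATCA, a C/EBP-ATF element (0.918% of all genes, 5.66% of the 106). The XBP1 site TGACGTGG was found in 0 of the 8, in 0.603% of all genes and in 5.66% of the 106. CCAAT alone was in 8 of 8 (37.5% of all genes, 50.9% of the 106). CCACG alone was in 7 of 8 (31% of all genes, 54.7% of the 106). Both counts include the letters inside the longer elements. A match is a match of letters and not a measured site.

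Levels are log2 of the signal relative to the 75th percentile of the same array, so 1 unit is a factor of 2 and each probe is compared only with itself. Every difference is miR-185-inh minus ctrl-inh. The test is limma across all 35470 probes kept, two-sided, its p adjusted by Benjamini-Hochberg across those probes, and a gene is called when its adjusted p is under 0.05. Each of the 16 arrays carried 59305 non-control spots, of which 58.7% to 74.8% were well above background, and any 2 arrays correlated across probes with r from 0.983 to 0.996. Each group had a slide and a scan of its own, so every group difference below is also a difference between slides and scans, and these cannot be told apart. Each numbered sample is called a mouse here, but nothing in the labels states that samples of a group are different animals, so the p-values speak only for the spread among these samples, which may be technical. The 4 arrays in each of the 2 rows of a slide held different samples, so row and sample cannot be told apart. In bulk liver RNA, fewer cells of a type and less RNA per cell cannot be told apart either. Ctrl-inh mice 8 and 12, both in row 2, had the highest ctrl-inh values in 8 of the 10 genes, a pattern noticed once the values had been looked at. Results are therefore also given without them. As these mice hold the highest ctrl-inh values, leaving them out moves the difference of those 8 genes upward by construction. A smaller fall without them is thus no test of the difference.

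Creld2 was the 1 gene of the 10 that was called. Across all probes 4.28% were called, 3.20% lower and 1.08% higher in miR-185-inh livers. Of the 10 genes 9 had a difference below zero, with a median of -0.23, against a median of -0.037 and 58.9% below zero over all probes. Before adjustment 6 of the 10 were lower at p under 0.05, as were 13.6% of all probes, with a further 6.18% of all probes higher. These 6 were Creld2, Sel1l, Sdf2l1, Hyou1, Pdia4 and Manf, while for Hspa5, Dnajc3, Herpud1 and Dnajb9 the difference was smaller than either group's SD. Without ctrl-inh mice 8 and 12 the median of the 10 was -0.14, 7 were below zero and Creld2 alone was called.

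**Figure D1:**
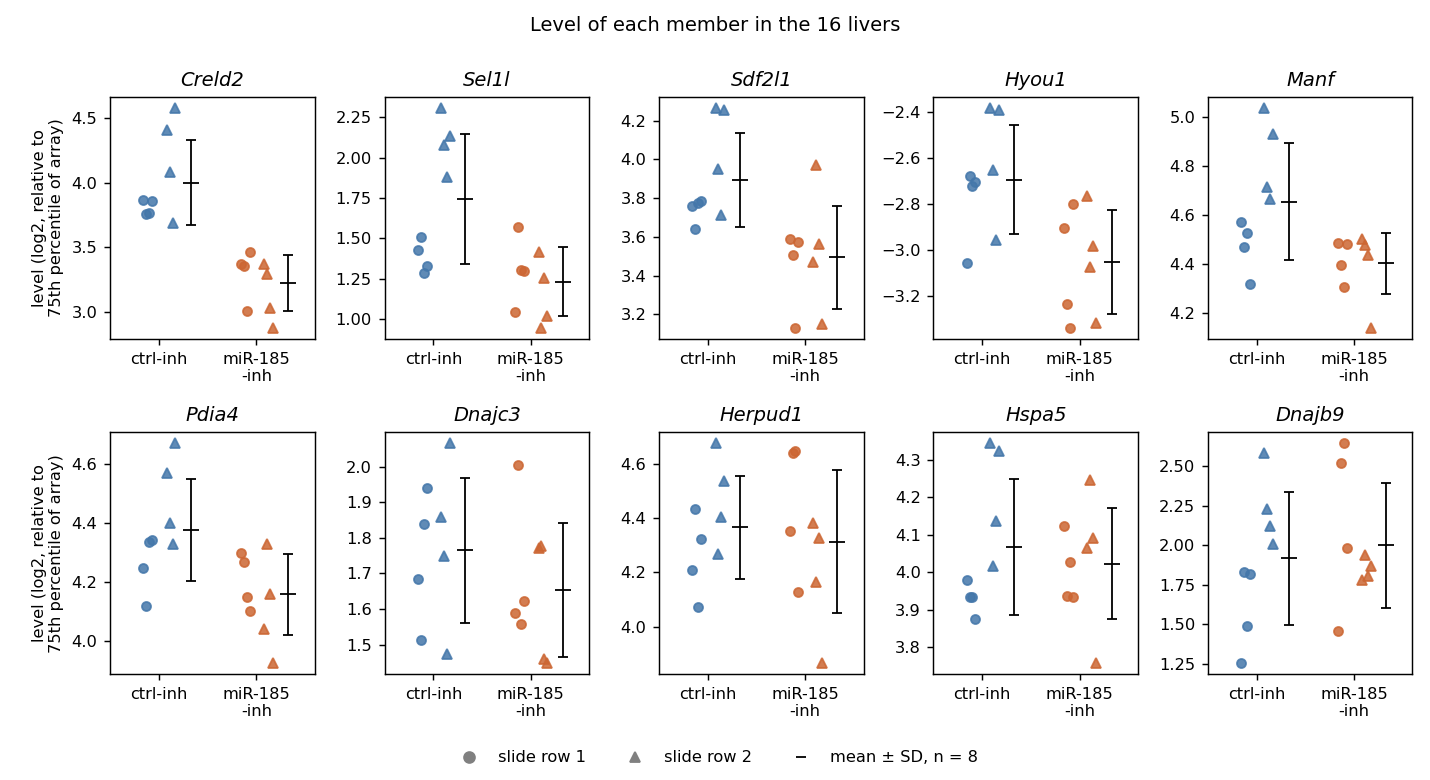
Level of each of the 10 genes (log2 relative to the 75th percentile of the array, y axis, scaled for each gene) in the 8 ctrl-inh and 8 miR-185-inh livers, with circles for slide row 1, triangles for row 2 and mean ± SD (n = 8) beside the points. The Creld2 groups do not overlap, those of the other 9 genes do, and the highest ctrl-inh points are mostly row 2 arrays.

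The first group of genes is BiP and the proteins that work directly with it. Hspa5 encodes BiP, the Hsp70 chaperone of the ER lumen and the standard readout of the unfolded protein response. Its level ran from 3.88 through a median of 3.997 to 4.35 in ctrl-inh livers and from 3.76 through 4.05 to 4.25 in miR-185-inh livers. The ranges nearly coincided, and the difference of -0.045 (SE 0.085, 95% interval -0.23 to 0.13) did not pass the test (limma adjusted p = 0.821). It was 0.044 without ctrl-inh mice 8 and 12. Hyou1 encodes the large chaperone GRP170, which exchanges nucleotide on BiP. Its probe gave -3.06, -2.69 and -2.38 as lowest, median and highest level in ctrl-inh livers and -3.34, -3.03 and -2.76 in miR-185-inh livers. All 8 miR-185-inh mice lay below the ctrl-inh mean and 4 below the lowest ctrl-inh mouse. The Hyou1 difference was -0.36 (SE 0.11, limma adjusted p = 0.0819, exact permutation p = 0.00901). It passed without ctrl-inh mouse 1 (-0.41, limma adjusted p = 0.0491), the lowest ctrl-inh value. It was smaller after normexp background correction (-0.24, limma adjusted p = 0.225) and without ctrl-inh mice 8 and 12 (-0.26, limma adjusted p = 0.251).

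Dnajb9 and Dnajc3 encode the J-domain cochaperones ERdj4 and p58IPK, which deliver substrates to BiP or start its ATP cycle. Dnajc3 ran from 1.47 through 1.79 to 2.07 in ctrl-inh and from 1.45 through 1.61 to 2.005 in miR-185-inh livers, with overlapping groups and a difference of -0.11 (SE 0.098, limma adjusted p = 0.572), or -0.046 without ctrl-inh mice 8 and 12. The brighter Dnajb9 probe ran from 1.25 through 1.92 to 2.59 and from 1.46 through 1.90 to 2.65. Its difference was 0.083 (SE 0.19, limma adjusted p = 0.854), the only one of the 10 above zero, and 0.21 without ctrl-inh mice 8 and 12. The dimmer Dnajb9 probe went the other way, with -0.47 (SE 0.24, limma adjusted p = 0.298), so the 2 probes disagree in sign and the gene has no settled direction. Sdf2l1 encodes an ER-resident protein that works with a further J-domain partner of BiP. Its levels were 3.64, 3.78 and 4.27 (lowest, median, highest) in ctrl-inh and 3.13, 3.53 and 3.97 in miR-185-inh livers. Of the miR-185-inh mice 7 of 8 lay below the lowest ctrl-inh mouse, and mouse 9 was the exception at 3.97. The Sdf2l1 difference was -0.40 (SE 0.12, limma adjusted p = 0.0745, exact permutation p = 0.00715). Without miR-185-inh mouse 9 it passed (-0.47, limma adjusted p = 0.0362), and without ctrl-inh mice 8 and 12 it was -0.28 (limma adjusted p = 0.230).

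Pdia4, Creld2 and Manf encode luminal proteins induced by ER stress. Creld2, a cysteine-rich protein with EGF-like domains that is retained in the ER and can be secreted, ran from 3.69 through a median of 3.86 to 4.58 in ctrl-inh livers and from 2.88 through 3.33 to 3.46 in miR-185-inh livers. The highest miR-185-inh mouse lay below the lowest ctrl-inh mouse. Groups separated in this direction for 1 of the 10 genes and for 0.632% of all probes. Creld2 fell by 0.78 on the log2 scale, from 4.002 ± 0.33 (SD, n = 8) to 3.22 ± 0.22 (SD, n = 8), which is 1.72-fold lower (SE 0.13, 95% interval -1.06 to -0.50, limma adjusted p = 0.00574). Its exact permutation p of 0.000155 is the smallest that 6435 splits can give. The probe is printed in 10 spots on each array, 7 to 10 of them used, and their SD within an array, which covers spot-to-spot noise only, was 0.026 to 0.074. Without ctrl-inh mice 8 and 12 the Creld2 fall was 0.61 (limma adjusted p = 0.0233).

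Pdia4 encodes ERp72, a protein disulfide isomerase. It ran from 4.12 through 4.34 to 4.67 in ctrl-inh and from 3.92 through 4.15 to 4.33 in miR-185-inh livers. All 8 miR-185-inh mice were below the ctrl-inh mean, with a difference of -0.22 (SE 0.082, limma adjusted p = 0.143, exact permutation p = 0.0141). Manf encodes a secreted ER stress protein that binds BiP, and ran from 4.32 through 4.62 to 5.04 and from 4.14 through 4.46 to 4.50. All 8 miR-185-inh mice were again below the ctrl-inh mean, with a difference of -0.25 (SE 0.095, limma adjusted p = 0.147, exact permutation p = 0.0159). In both genes the groups overlapped, and the upper end of the ctrl-inh range came from mice 8 and 12. Without those mice the differences were -0.14 for both genes (limma adjusted p = 0.384 for Pdia4 and 0.392 for Manf).

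Sel1l and Herpud1 belong to the ERAD complex around the ubiquitin ligase HRD1. Sel1l encodes the adaptor that holds HRD1 and brings it substrates. Its level ran from 1.29 through 1.70 to 2.31 in ctrl-inh and from 0.94 through 1.27 to 1.57 in miR-185-inh livers, and 4 miR-185-inh mice lay below the lowest ctrl-inh mouse. The Sel1l difference was -0.51 (SE 0.15, limma adjusted p = 0.0643, exact permutation p = 0.00761). It passed without ctrl-inh mouse 3 (-0.58, limma adjusted p = 0.0473), without ctrl-inh mouse 4 (-0.57, limma adjusted p = 0.0492) and without miR-185-inh mouse 3 (-0.56, limma adjusted p = 0.0440). Without ctrl-inh mice 8 and 12 it was -0.35 (limma adjusted p = 0.197). Herpud1 encodes a membrane protein that helps assemble the HRD1 complex and is strongly induced by ER stress. It ran from 4.07 through 4.36 to 4.68 and from 3.86 through 4.34 to 4.65, and the difference of -0.052 (SE 0.11, limma adjusted p = 0.843) was 0.028 without ctrl-inh mice 8 and 12. The 2 ERAD genes thus had values of unlike size, although the difference between them was not tested.

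The differences of genes with and without a stress element are set side by side here, with no test. Creld2 (-0.78), Dnajc3 (-0.11), Herpud1 (-0.052) and Hspa5 (-0.045) hold one, while Sel1l (-0.51), Sdf2l1 (-0.40), Pdia4 (-0.22) and Dnajb9 (0.083) hold none in the 250 bases searched. For Hyou1 and Manf no window was searched.

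For all 10 genes the group difference was lower among the row 2 arrays than among the row 1 arrays. The median was -0.055 in row 1, with 7 of 10 below zero, and -0.41 in row 2, with 10 of 10 below zero. Over all probes the medians were 0.0011 and -0.073. In a limma model with group, slide row and their interaction, 4 genes were called within row 2, against 4.92% of all probes. They were Sel1l (-0.94, adjusted p = 0.00517), Creld2 (-1.05, adjusted p = 0.0101), Manf (-0.45, adjusted p = 0.0305) and Pdia4 (-0.38, adjusted p = 0.0479). Within row 1 the limma model called 0 of the 10, against 0.00564% of all probes. There 2 of the 10 had an unadjusted p under 0.05, Creld2 at -0.51 (adjusted p = 0.157) and Dnajb9 at 0.55 (adjusted p = 0.228). When the row 2 arrays were fitted alone, Sel1l was the 1 gene called (limma adjusted p = 0.0358), and Creld2 was not (limma adjusted p = 0.0531).

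The interaction, row 2 minus row 1, was below zero in 10 of 10 genes, but none was called, against 0.124% of all probes. Its median over all probes was -0.097. Before adjustment 6 of the 10 had an interaction p under 0.05, against 13.7% of all probes. Sel1l had the smallest interaction p of the 10, with an interaction of -0.86 (limma adjusted p = 0.0656), and Creld2 had -0.53 (limma adjusted p = 0.339). The brighter Dnajb9 probe differed by 0.55 in row 1 and -0.39 in row 2 (interaction -0.94, limma adjusted p = 0.181), and its dimmer probe by 0.15 and -1.09 (interaction -1.24, limma adjusted p = 0.171).

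**Figure D2:**
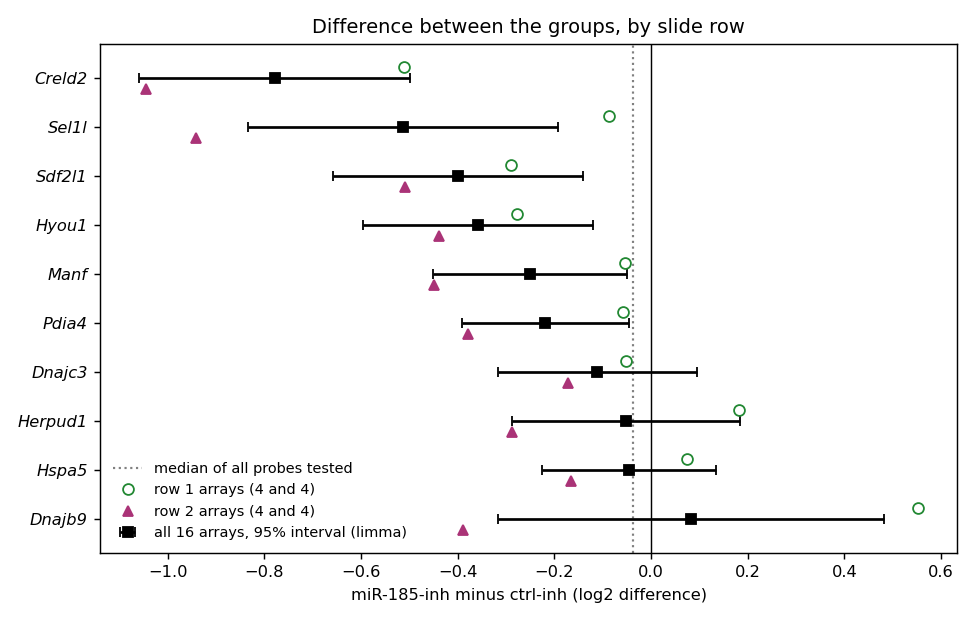
Log2 difference, miR-185-inh minus ctrl-inh (x axis), for each of the 10 genes, with squares and 95% limma intervals for all 16 arrays, open circles for the 4 and 4 arrays of slide row 1 and triangles for those of row 2. Every triangle lies left of its circle, and the dotted line marks the median of all probes, -0.037.

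The rows were then compared within each group. Within ctrl-inh, row 2 exceeded row 1 in 10 of 10 genes, with a median of 0.29 against 0.080 over all probes. Sel1l was the 1 gene called for it (0.71, limma adjusted p = 0.0206), against 3.25% of all probes. Sel1l was 1.29 to 1.51 in the row 1 ctrl-inh mice and 1.88 to 2.31 in the row 2 ones. How many of all probes separate by row in this way was not counted. Within miR-185-inh the row 2 minus row 1 median of the 10 was -0.085, none was called and none had an unadjusted p under 0.05. Over all probes 0 were called there, against 1153 within ctrl-inh.

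Other values moved with the ctrl-inh rows. The share of spots well above background was 68.6% to 74.8% in row 1 and 58.7% to 64.2% in row 2 of ctrl-inh, and 60.7% to 67.1% over the miR-185-inh arrays. The summed level of 10 hepatocyte markers was 8.48 to 8.91 in row 1 and 8.91 to 9.20 in row 2 of ctrl-inh, and that of 10 sinusoidal endothelial markers was 5.81 to 5.95 and 5.18 to 5.63. Outlier spots were left out of the sums, and Serpina1c and Trf each had values on only 7 of the 8 ctrl-inh arrays. A hepatocyte sum that lacks either is too low, so the hepatocyte ranges are not of like sums. The summed level of the 7 pancreatic acinar markers tested was 2.76 to 2.91 in row 1 and 3.07 to 3.17 in row 2 of ctrl-inh. Signals were summed before the log, so this is mostly Amy2a5, with a ctrl-inh mean of 2.78. The other acinar markers had means from -5.06 to -0.70, and the sum says little about them. The part of these values in the row difference of the 10 genes was not tested.

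Marker lists were also compared between the groups, since other cells of the liver carry ER genes. All 10 hepatocyte markers (Alb and Ttr among them) were well above background on all 16 arrays, and none was called. Their median difference was -0.085, and their summed level was 8.48 to 9.20 in ctrl-inh and 8.63 to 8.96 in miR-185-inh livers. Without outlier spots, Serpina1c had values on 7 of 8 ctrl-inh and 5 of 8 miR-185-inh arrays, and Trf on 7 of 8 ctrl-inh arrays. Hepatocyte sums that lack either are too low, so these ranges are not of like sums. Of 12 neutrophil markers 11 were tested, all 11 were below zero with a median of -1.01, and 2 were called lower, Ltf (-1.97, limma adjusted p = 0.0255) and Ngp (-1.22, limma adjusted p = 0.0448). The summed level of the 11 was 5.03 to 6.27 in ctrl-inh and 4.62 to 6.11 in miR-185-inh livers. With signals summed before the log, this is mostly Csf3r and Lcn2 (ctrl-inh means 4.35 and 4.04). It says little about Ltf and Ngp (-3.25 and -3.11). The Ltf probe was well above background on 3 of the 8 miR-185-inh arrays and all 8 of ctrl-inh. For Mpo this was 3 of 8 and 7 of 8, and for Camp 6 of 8 and all 8. All 9 Kupffer cell and macrophage markers tested were below zero, none was called, the median was -0.15 and the summed level was 6.21 to 6.70 and 5.88 to 6.62.

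Plasma and acinar cells are rich in ER. Of 10 plasma and B cell markers 8 were tested and none was called, 3 above and 5 below zero with a median of -0.10. The lowest were Jchain at -0.62 (limma adjusted p = 0.0789) and Mzb1 at -0.43 (limma adjusted p = 0.103), while the highest was Ms4a1 at 0.10, and the summed level was 1.24 to 1.96 in ctrl-inh and 1.19 to 2.11 in miR-185-inh livers. Cd79a and Tnfrsf17 were not well above background on enough arrays to be tested. Of 12 pancreatic acinar markers 7 were tested and 1 was called, Cel (-0.48, limma adjusted p = 0.0193), bile salt-activated lipase. Of these 7, 3 lay above zero and 4 below it (median -0.36), and Cela2a was at 0.61 (limma adjusted p = 0.118) and Amy2a5 at 0.21 (limma adjusted p = 0.240). Their summed level, mostly the signal of Amy2a5, was 2.76 to 3.17 and 2.81 to 3.33. The trypsin gene Prss2, Cpb1, Pnlip, Try4 and Ptf1a did not pass the filter on dim probes. No stellate, sinusoidal endothelial or cholangiocyte marker was called, with medians of 0.070, 0.073 and -0.087. The part of these cell types in the differences of the 10 genes was not tested.

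Among 129 other genes of the same pathways, 128 were tested and 1 was called, against 4.28% of all probes. The gene called was Ero1b (older symbol Ero1lb), an oxidase that regenerates protein disulfide isomerases. Ero1b fell by 0.57 on the log2 scale, from 2.42 ± 0.20 (SD, n = 8) to 1.85 ± 0.22 (SD, n = 8), which is 1.49-fold lower (limma adjusted p = 0.00675). The median of the 128 was -0.025, with 79 below zero, close to the -0.037 of all probes.

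By list, the 18 other luminal chaperones and cochaperones had 8 genes above and 10 below zero and a median of -0.042. Clgn, a calnexin relative (-0.52, limma adjusted p = 0.0984), Uggt1, the glucosyltransferase that senses misfolded glycoproteins (-0.16, limma adjusted p = 0.111), and Creld1, the relative of Creld2 (-0.20, limma adjusted p = 0.117), had the smallest p. The 15 disulfide isomerases and oxidases had 9 above and 6 below zero and a median of 0.012. After Ero1b, Txndc5 (-0.18, limma adjusted p = 0.210) and the peroxiredoxin Prdx4 (0.16, limma adjusted p = 0.241) had the smallest p there. Among the 29 other ERAD genes, 9 lay above zero and 20 below it (median -0.050). The ubiquitin ligase Rnf5 (-0.32, limma adjusted p = 0.0933), the mannosidase Man1b1 (-0.16, limma adjusted p = 0.0971) and the ubiquitin-conjugating enzyme Ube2g2 (-0.25, limma adjusted p = 0.133) had the smallest p of that list.

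The 13 sensors and transcription factors of the unfolded protein response were split, 7 above and 6 below zero, with a median of 0.042. Mbtps2, a protease that cleaves ATF6, was at -0.25 (limma adjusted p = 0.0673), Eif2ak3, which encodes PERK, at 0.42 (limma adjusted p = 0.103), and Yy1 at 0.14 (limma adjusted p = 0.138). Of 17 genes of the PERK and integrated stress response 16 were tested, 4 above and 12 below zero, with a median of -0.064. Nupr1 (-0.45, limma adjusted p = 0.0774), Sesn2 (-0.19, limma adjusted p = 0.180) and Trib3 (0.46, limma adjusted p = 0.256) had its smallest p. Of the 37 genes of the translocon, glycosylation and ER to Golgi transport, 12 lay above zero and 25 below it (median -0.036). Stt3a, a catalytic subunit of the oligosaccharyltransferase (-0.16, limma adjusted p = 0.223), the signal peptidase subunit Sec11a (-0.15, limma adjusted p = 0.283) and the COPII coat gene Sec13 (-0.16, limma adjusted p = 0.289) led it.

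Covariation of the 10 genes was examined among mice of the same group. Correlations were computed for the 45 pairs of genes across the 8 mice of each group, with an exact permutation p over all 40320 pairings and Benjamini-Hochberg adjustment over the 90 values. In ctrl-inh livers r was above zero for 45 of 45 pairs, with a median of 0.72 and a range of 0.084 to 0.974, and 6 pairs passed. The highest was Creld2 with Sdf2l1 (r = 0.974, exact permutation p = 0.00126, adjusted p = 0.0285; rho = 0.881, exact permutation p = 0.00724, adjusted p = 0.107). Hspa5 passed with Manf (r = 0.953, exact permutation p = 0.000397, adjusted p = 0.0223; rho = 0.952, exact permutation p = 0.00114, adjusted p = 0.0502). It also passed with Sel1l (r = 0.877, exact permutation p = 0.00315, adjusted p = 0.0405; rho = 0.929, exact permutation p = 0.00223, adjusted p = 0.0502). The other 3 pairs were Pdia4 with Sdf2l1 (r = 0.941), Manf with Sel1l (r = 0.913) and Creld2 with Pdia4 (r = 0.899). By rho 0 pairs passed in either group, with a median of 0.667 in ctrl-inh. After quantile normalization 3 ctrl-inh pairs passed by r (median 0.61) and 2 by rho, and 1 miR-185-inh pair passed by each.

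The relations were recomputed by row and without the most extreme mice. With each slide row centred the ctrl-inh median was 0.60, with 42 of 45 above zero. Among the pairs that had passed, r with rows centred ran from 0.588 for Hspa5 with Sel1l to 0.961 for Creld2 with Sdf2l1. The permutation p did not keep the rows apart and so takes in a shift shared between rows. The x gene of a pair is the one that comes first in the opening list of the 10 genes. It is Sdf2l1 in the pairs with Creld2 and with Pdia4, and Pdia4 in the pair with Creld2. Without the 2 mice farthest from the median of the x gene the ctrl-inh median was 0.38, with 36 of 45 above zero. No pair passed there, but 6 mice have only 720 pairings, so that a pair can hardly pass the adjustment over 90 values and the missing calls say nothing, and leaving out extreme mice also narrows the range. For the pairs named with both coefficients, r without those 2 mice was 0.890 for Creld2 with Sdf2l1, 0.819 for Hspa5 with Manf and 0.746 for Hspa5 with Sel1l. For the other pairs that had passed, it was 0.802 for Pdia4 with Sdf2l1, 0.808 for Manf with Sel1l and 0.464 for Creld2 with Pdia4. Hspa5 with Creld2 went from 0.811 to -0.165 and so rests on the mice left out. The mean profile of the 10 genes, in SD units about the group mean, was 1.49 and 1.39 in ctrl-inh mice 8 and 12 and -0.84 to 0.22 in the other ctrl-inh mice.

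In miR-185-inh livers r was above zero for 35 of 45 pairs, with a median of 0.39 and a range of -0.645 to 0.831. Hyou1 with Manf was the 1 pair that passed (r = 0.815, exact permutation p = 0.00223, adjusted p = 0.0402; rho = 0.929, exact permutation p = 0.00223, adjusted p = 0.0502; r = 0.839 without the 2 farthest mice). The lowest r was Dnajb9 with Hyou1, at -0.645. Centred on rows the median was 0.40, and without the 2 farthest mice it was 0.082. Mouse 12 had the lowest profile of this group, -1.27, against -0.12 to 0.56 in the others. Whether the 2 groups differ in how closely the genes vary together was not tested.

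Hspa5 correlated above zero with 9 of 9 partners in ctrl-inh livers (median r 0.81) and with 7 of 9 in miR-185-inh livers (median r 0.37). Over 15237 named genes the median r with Hspa5 was 0.25 and 0.16, with 63.6% and 62.9% above zero, so a part of each value is shared with genes in general. These medians over genes carry no test, since all genes share the same arrays. Without the 2 mice farthest from the Hspa5 median, the median r with the 9 partners was 0.23 in ctrl-inh and -0.088 in miR-185-inh livers. In this scaling the values 0.81 and 0.37 thus rest largely on those mice, although leaving out extreme mice also narrows the range. After quantile normalization the median was 0.69 in ctrl-inh and 0.17 in miR-185-inh livers. Without the 2 farthest mice it was then -0.45 and 0.72, so the values without those mice depend on the scaling.

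**Figure D3:**
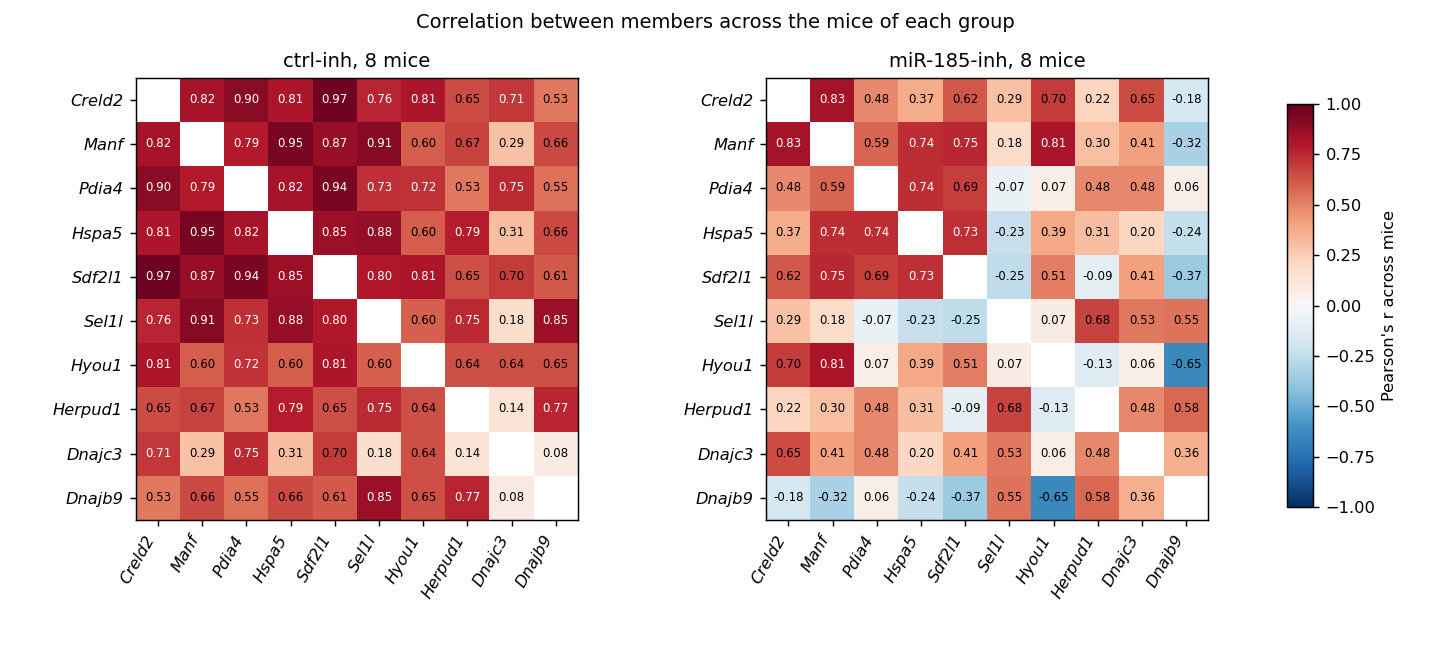
Pearson's r between each pair of the 10 genes across the 8 ctrl-inh mice (left) and the 8 miR-185-inh mice (right), coloured from -1 to 1 and printed in each cell. All ctrl-inh cells are above zero, while the miR-185-inh cells run from -0.645 to 0.831, with most of the negative ones in the Dnajb9 and Sel1l rows.

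The genes most like the 10 were sought over all 16 arrays, with values centred on the group means so that the group difference plays no part. Likeness is Pearson's r with the mean profile of the 10 genes, each scaled by its SD, and is a description with no test. Against the profile of the other 9, Creld2 (r = 0.87), Manf (0.86) and Pdia4 (0.82) were most like the rest. Hspa5 (0.77), Sdf2l1 (0.75) and Sel1l (0.72) came next, then Hyou1 (0.58), Herpud1 (0.56) and Dnajc3 (0.52), and Dnajb9 (0.42) was least like them. With each slide row centred as well, Dnajb9 was at 0.023 and Sel1l at 0.43.

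Of 14590 other named genes, Selenos had the highest r, 0.90, and encodes an ER membrane selenoprotein of the ERAD complex. It was followed by Snu13 (0.89), a small ribonucleoprotein component, Ufsp2 (0.88), a protease of the UFM1 system, Rab1a (0.88), a GTPase of ER to Golgi transport, and Harbi1 (0.88). Ebna1bp2 (0.87), Bud31 (0.86), Gmppb (0.86), Stt3a (0.86) and Srp19 (0.86) completed the 10 highest, Gmppb making GDP-mannose for glycosylation and Srp19 being part of the signal recognition particle.

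The median r of all named genes was 0.15. The 37 genes of the translocon, glycosylation and ER to Golgi transport had a median of 0.67, the disulfide isomerases and oxidases 0.55, the other luminal chaperones 0.53 and the other ERAD genes 0.49. Sensors and transcription factors (0.27) and the integrated stress response (0.17) lay nearer to the median of all genes. Of the 128 pathway genes, out of 14590 named genes ranked, 12 were among the 100 with the highest r, including Ssr3 (0.85), Edem1 (0.83) and Pdia3 (0.80). Not all genes of these lists followed the profile. The disulfide isomerase list held Tmx3 (-0.60), and the list of other luminal chaperones held Sdf2 (-0.52) and Hsp90b1 (-0.025). With slide rows centred the medians were 0.58 for the translocon list and 0.27 for the other ERAD genes, against 0.12 for all named genes.

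**Figure D4:**
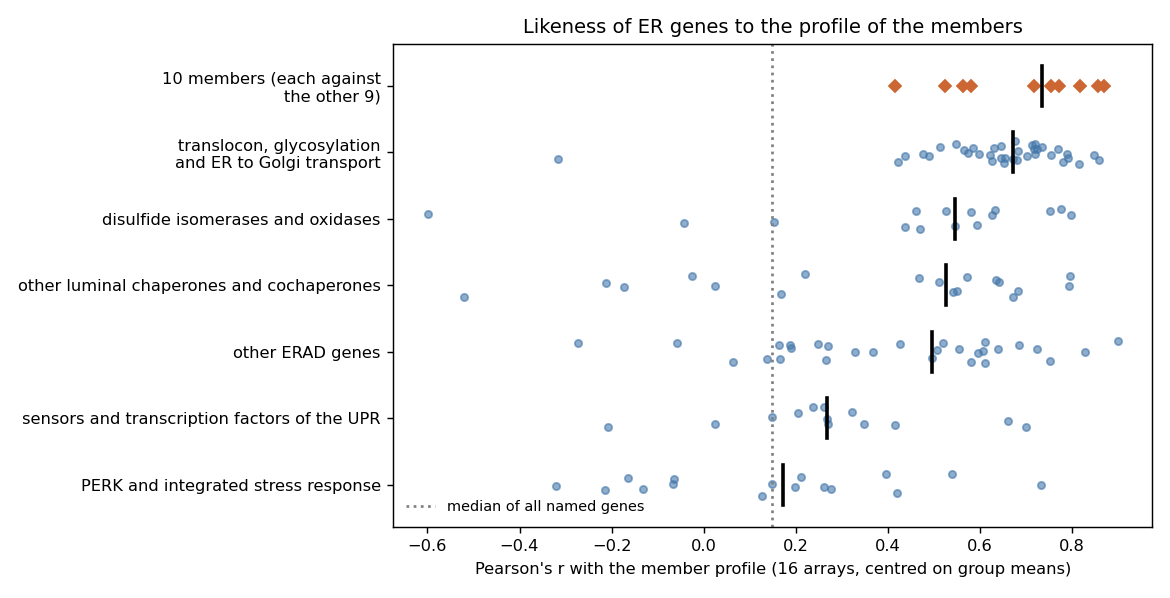
Pearson's r (x axis) with the mean profile of the 10 genes over 16 arrays centred on group means, for the 10 genes (diamonds, each against the other 9) and for the tested genes of 6 pathway lists (points, spread vertically for legibility), with a bar at each median. The translocon list has a median of 0.67 and the integrated stress response list one of 0.17, and the dotted line marks the median of all named genes, 0.15.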

How the data were processed

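The deposited scanner files, 1 for each of 16 one-colour Agilent arrays, hold a spot intensity that the authors' Feature Extraction software (11.5.1.1 per the file headers, 9.1 per the submitters' processing notes) had background-subtracted, with median spot and background intensity beside it. Flags for outliers and for signal well above background are other columns, per the file headers. The authors' deposited value table is on a log2 scale and equals log2 of that intensity minus 1 constant for each array. How that constant was set is not stated in the labels or headers, and the median of a column lay between -1.30 and -1.22.

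Values were log2 intensity minus the 75th percentile of each array over non-control spots, without outlier spots, and spots of 1 probe were averaged. Probes well above background on at least 8 of 16 arrays were kept, and the brightest stands for a gene. Accessions were matched to RefSeq (GRCm38.p6) for names and promoter windows, because the array grid is on mm9, and 26762 of 55681 probes were named. Groups came from the treatment labels and limma 3.58.1 (R 4.3.3) tested their difference, after the same code was tested on simulated data. Single probes were also compared by exact permutation over 6435 splits. The number of arrays limits the precision.

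The members, the lists of pathway and marker genes and the tests were chosen with earlier results of these data known. Named genes are the 10 members, the pathway genes called or with the 3 smallest p of a list, and the 10 genes most like the members. Markers, and the further genes named with the likeness values, were named outside that rule after their values were seen. Alternatives were the scaling, background correction, filter, probe choice, limma settings, slide position, a replicate block and leaving out mice. Normexp ran on the median spot signal. Probe positions were not used here.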

Additional observations from a re-analysis of the deposited data

How the results depend on the processing

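Differences of the 10 genes were recomputed under 31 alternatives each, giving 310 values, of which 285 kept their direction and side of the threshold, 3 were weaker, 11 stronger and 11 reversed. Creld2 ran from -1.05 to -0.51 and lost its call in slide row 1 alone (limma adjusted p = 0.103), row 2 alone (0.0531) and with the replicate block (0.349). Without single mice its adjusted p was 0.00407 to 0.0127. Sdf2l1 passed after normexp (-0.48, limma adjusted p = 0.0277) and with the percentile over detected probes (-0.42, 0.0435), Sel1l likewise (-0.58, 0.0350, and -0.54, 0.0334), and Pdia4 after quantile normalization (-0.21, 0.0482).

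The count of called genes among the 10 was 3 after normexp, 2 after quantile normalization, 3 with the percentile over detected probes, 0 in row 1 alone, 0 with the block and 1 to 2 without single mice. Pathway genes called were 3 after quantile normalization, 4 with the percentile over detected probes, 2 with array weights, 2 with slide row and column as covariates, 0 in row 1 alone, 2 in row 2 alone, 0 with the block and 1 to 4 without single mice. Over all probes 896 were called after quantile normalization, 0 in row 1 alone, 355 in row 2 alone, 0 with the block, 567 without ctrl-inh mice 8 and 12, and 885 to 2023 without single mice, against 1517. Calls split into 382 higher and 1135 lower, but 691 and 748 after normexp, 435 and 461 after quantile normalization and 363 and 1872 with the percentile over detected probes. Members called in correlation with Hspa5 in ctrl-inh livers numbered 1 after quantile normalization, against 2. The cause of these changes in counts was not tested. Such members numbered 0 without the 2 farthest mice, where 720 pairings can hardly pass over 90 values and r was still 0.819 with Manf and 0.746 with Sel1l.

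Reversed differences were Dnajb9 with averaged probes (-0.19), in row 2 alone (-0.39), with the block (-0.00057) and without single mice (range -0.012 to 0.18), Hspa5 with array weights (0.0074), in row 1 alone (0.074) and without ctrl-inh mice 8 and 12 (0.044), and Herpud1 in row 1 alone (0.18), without mice 8 and 12 (0.028) and without single mice (range -0.10 to 0.012). None of these was called. Before adjustment limma gave p under 0.05 for 6049 probes, 2 of the 10 genes and 8 pathway genes in row 1 alone, and for 3533, 5 and 6 with the block. Leaving out mice 8 and 12 together was chosen after seeing the data.

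The groups share 5 mouse numbers, whose samples correlated by 0.085, 0.10, 0.0098, 0.11 and -0.12 in their deviations from the group means. The labels do not say whether samples of the same number are related. With no pair known to be related for comparison, these values cannot settle it. With that replicate block the 10 arrays gave 0 calls and a Creld2 difference of -0.89.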
